A study of Homo sapiens with 6 samples.

Results

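The heat shock protein and DNAJ genes were described in RNA-seq of human hTERT-RPE1 cells in which FOXM1c was induced with doxycycline. They comprised the 60 protein-coding rows, of 13008 rows in the authors' comparison table, whose symbol begins with HSPA, HSPB, HSPD, HSPE, HSPH or DNAJA, DNAJB, DNAJC followed by a digit, or with HSP90. The symbol and biotype chose them, and no measured change did. There were 13 HSPA, 4 HSPB, 2 HSPD or HSPE, 1 HSPH, 3 HSP90, 3 DNAJA, 9 DNAJB and 25 DNAJC genes. A further 3 rows with such a symbol had another biotype and were left out, namely the pseudogenes HSP90AB2P and HSPE1P25 and the lincRNA DNAJC3-AS1. All 60 genes passed the filter on low values.

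Heat shock proteins are molecular chaperones, which bind unfolded or partly folded proteins and keep them from aggregating. HSP70 proteins (the HSPA family) hold clients in cycles of ATP hydrolysis. DNAJ proteins deliver clients to HSP70 and trigger that hydrolysis through their J domain, and HSP110 proteins (HSPA4, HSPA4L and HSPH1) release the nucleotide again. HSP90 acts later on signalling proteins, HSPD1 with its lid HSPE1 encloses proteins in mitochondria, and small HSPs (the HSPB family) bind clients without ATP. Many of these genes are transcribed at rest in cultured cells and further induced by the factor HSF1 under stress, while those of the endoplasmic reticulum (ER) answer to the unfolded protein response.

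The cell line, Tet-FLAG-FOXM1c-hTERT-RPE1, derives from retinal pigment epithelium immortalised with telomerase and, by its name, holds FOXM1c with a FLAG tag behind a promoter that answers to tetracycline. In the dox group (3 libraries, genotype label FOXM1 overexpression, treatment label doxycycline) cells received doxycycline at 1 µg/mL each 24 h over 48 h. The no dox group (3 libraries) has the same line name, the genotype label WT and the treatment label none. Doxycycline on cells without the transgene was not analysed here, so effects of the drug and of FOXM1 cannot be told apart. Whether the line is 1 clone, and whether libraries came from separate cultures, is not stated in the labels, so a p-value here reflects only how far these libraries spread. In bulk RNA, fewer cells of a kind and less RNA per cell cannot be told apart.

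FOXM1 was at 65289, 66830 and 74976 normalised counts in dox replicates 1, 2 and 3, against 5009, 4383 and 4292 in no dox replicates 1, 2 and 3. Normalised counts are the authors' deposited signal, in which library totals differ far less than in the reads. The sources used here do not say how it was made. All 3 dox libraries were far above all no dox libraries (log2 change 3.92, SE 0.10). Sequencing depth was 25148936 to 49882123 reads in dox libraries and 15094498 to 32280300 reads in no dox libraries, and in each numbered pair the dox library was the deeper one. Of 10 retinal pigment epithelium markers, MITF (2.06 to 2.23 FPKM) and OTX2 (1.91 to 3.14 FPKM) were measured above 1 FPKM, RPE65 reached at most 0.220 FPKM and TTR was listed at 0 in every library. KRT8, KRT18, CDH2 and VIM were at 20.02 FPKM or more in every library and CDH1 was at most 0.0106 FPKM. Of these epithelial and mesenchymal markers KRT8 and KRT18 rose, by 0.29 and 0.32 on the log2 scale, in the fit with the replicate block described further on, and their part in the results was not tested. The 60 genes took 1.01% to 1.09% of reads in dox libraries and 1.00% to 1.10% in no dox libraries.

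Promoter sequence was read from RefSeq (GRCh38.p14) for the 250 bases before the annotated start of 54 of the 60 genes, by symbol. The genes without an entry were DNAJC1, DNAJC22, DNAJC24, HSPA12B, HSPA14 and HSPB11. Shares over all promoters are of every window in that source, not only those of protein-coding genes or genes of the comparison table. Each of the 54 genes, in contrast, had a single window. The heat shock element, which HSF1 trimers bind, was searched as GAA, TTC and GAA, or their reverse complement TTC, GAA and TTC, with any 2 bases between neighbouring units. This exact form was in 2 of the 54 promoters (3.7%), those of HSPA8 and DNAJB6, against 0.441% of 35116 promoters. The 4 promoters below carry this element or the ER stress element, and are shown because HSPA8, HSPA5 and HSP90B1 are among the most abundant of these transcripts and DNAJB6 is among those that changed with the replicate block. Capitals mark each match. In HSPA8 the matches begin 230 and 55 bases before the start, and in DNAJB6 the match begins 131 bases before it.
HSPA8, chr11:123062137-123062386, minus strand: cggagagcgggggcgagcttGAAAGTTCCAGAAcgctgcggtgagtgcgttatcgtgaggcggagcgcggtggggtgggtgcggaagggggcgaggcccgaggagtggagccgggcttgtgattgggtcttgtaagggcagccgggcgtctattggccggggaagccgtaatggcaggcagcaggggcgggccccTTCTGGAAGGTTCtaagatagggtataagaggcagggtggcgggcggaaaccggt
DNAJB6, chr7:157336754-157337003, plus strand: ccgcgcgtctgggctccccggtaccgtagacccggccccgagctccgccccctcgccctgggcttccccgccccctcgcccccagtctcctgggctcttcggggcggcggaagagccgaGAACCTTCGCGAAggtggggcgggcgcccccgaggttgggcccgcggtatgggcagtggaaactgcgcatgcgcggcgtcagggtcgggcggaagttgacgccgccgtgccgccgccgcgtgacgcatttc
HSPA5, chr9:125241344-125241593, minus strand: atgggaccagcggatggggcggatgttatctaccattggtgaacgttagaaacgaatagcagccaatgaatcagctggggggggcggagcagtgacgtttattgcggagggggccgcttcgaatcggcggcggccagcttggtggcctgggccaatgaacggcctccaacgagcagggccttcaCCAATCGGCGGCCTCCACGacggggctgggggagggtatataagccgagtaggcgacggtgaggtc
HSP90B1, chr12:103930160-103930409, plus strand: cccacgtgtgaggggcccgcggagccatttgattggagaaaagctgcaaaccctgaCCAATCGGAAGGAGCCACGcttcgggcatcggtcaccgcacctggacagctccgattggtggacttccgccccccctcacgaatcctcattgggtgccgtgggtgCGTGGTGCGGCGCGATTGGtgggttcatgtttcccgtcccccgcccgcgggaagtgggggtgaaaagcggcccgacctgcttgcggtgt

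The ER stress element, searched as CCAAT and CCACG with any 9 bases between them, or the reverse complement, is bound by factors of the unfolded protein response. It was in 2 of 54 promoters (3.7%), against 0.074% of all promoters. HSPA5, which encodes the ER HSP70 BiP, held it 66 bases before the start, and HSP90B1, which encodes the ER HSP90 GRP94, held it 194 and 89 bases before the start. The shorter GAANNTTC, which is its own reverse complement and is contained in the heat shock element, was in 8 of 54 promoters (14.8%), against 5.78% of all promoters. These were HSPA1A, HSPA1B, HSPA1L, HSPA8, HSPB1, HSPB8, DNAJA1 and DNAJB6, and the windows of HSPA1A and HSPA1L overlap each other on opposite strands. The opposite arrangement TTCNNGAA, also its own reverse complement and also contained in that element, was in 3 promoters (5.56%), those of HSPA8, DNAJB6 and DNAJC15, against 6.62% of all. CCAAT or ATTGG was in 21 promoters (38.9%), against 32.0% of all, and each ER stress element includes one.

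A forkhead motif, TGTTTAC or GTAAACA, was in the promoters of HSP90AA1 and DNAJC6 (3.7%, against 2.98% of all promoters). TTTGAA or TTCAAA, the core of the cell cycle homology region through which the MuvB complex and FOXM1 are recruited to late cell cycle genes, was in those of HSPH1 and HSPA4L (3.7%, against 13.3% of all). TATAAA or TTTATA was in 7 promoters (13%, against 10.7% of all). A match describes letters in this window and is not evidence of binding. A promoter without a match may still hold an element that departs from these letters or lies outside the window.

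Chaperone transcripts were unequal in level. Levels between genes are given as CPM per kilobase of merged exons (CPM/kb), with mean ± SD over the 6 libraries. HSPA8, the constitutive cytosolic HSP70, stood highest at 563 ± 47.4 CPM/kb. It was followed by HSP90B1 at 419 ± 24.9, the cytosolic HSP90 genes HSP90AB1 at 417 ± 30.8 and HSP90AA1 at 390 ± 39.2, and HSPB1 (HSP27) at 405 ± 29.6. The ranges over libraries of these last 4 genes overlapped, so their order is not fixed, whereas the lowest HSPA8 value (491 CPM/kb) was above the highest of the 4 (470 CPM/kb). These 5 genes made up 63.0% of the summed level of all 60. HSPA5 followed at 195 ± 33.0, HSPD1 at 155 ± 11.9 and DNAJA1, a cytosolic HSP70 partner, at 89.9 ± 7.81 CPM/kb.

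**Figure D1:**
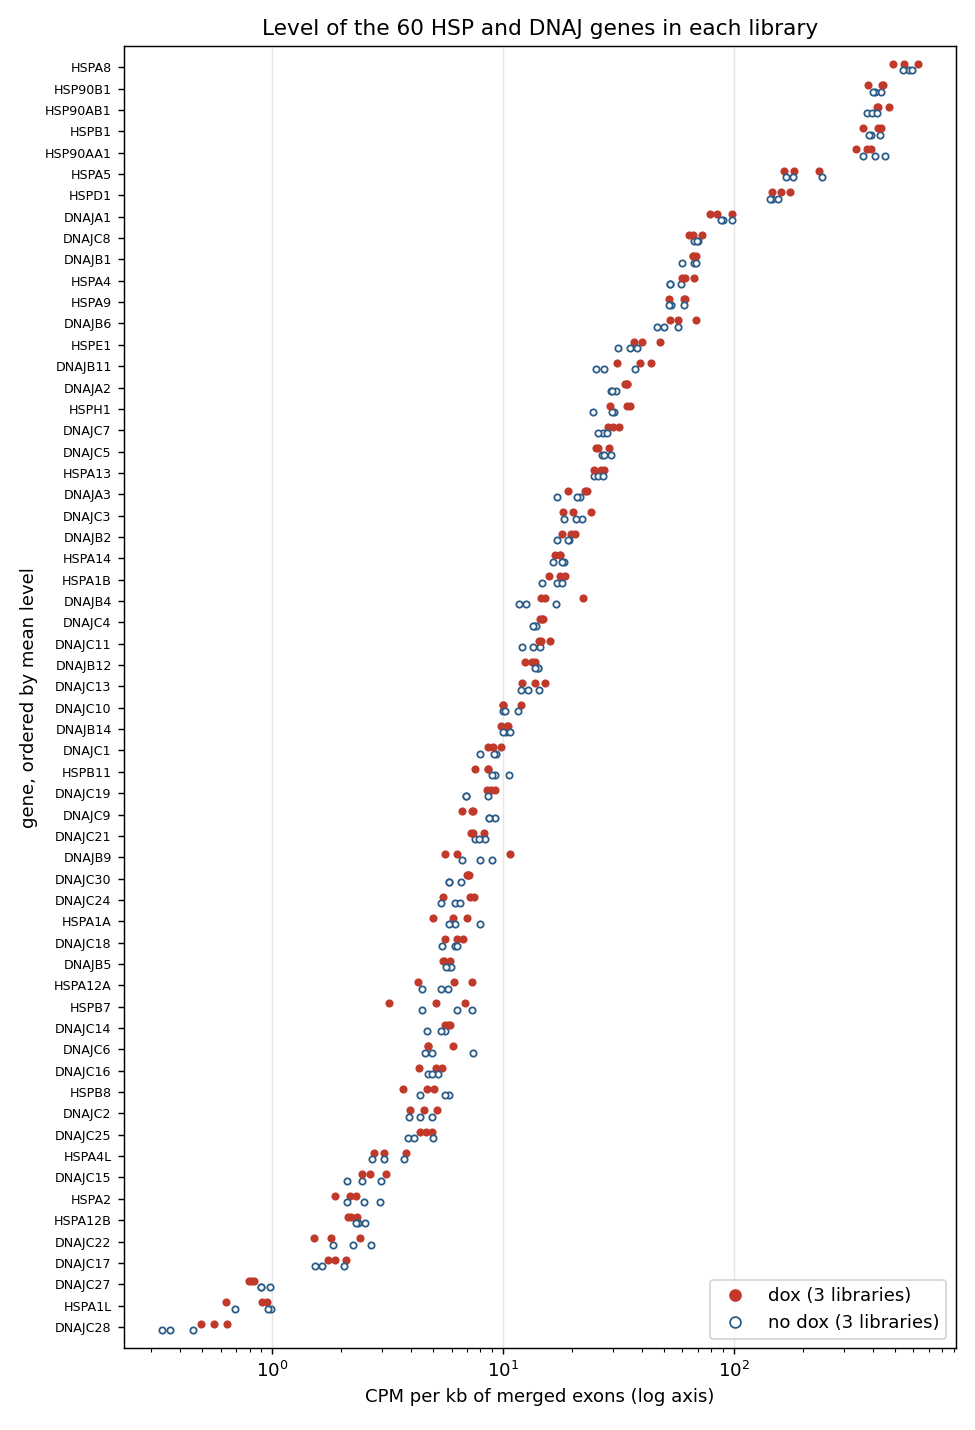
Level of each of the 60 genes in CPM per kb of merged exons (log axis), with 1 point per library, filled for dox and open for no dox, and genes ordered by their mean over the 6 libraries. The 5 highest genes lie between 340 and 628 CPM/kb, and DNAJC27, HSPA1L and DNAJC28 lie under 1 CPM/kb.

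Below the leading genes, 25 of the 60 were between 10 and 100 CPM/kb, 25 between 1 and 10, and 3 under 1. The median was 12.0 CPM/kb over the 60 genes and 7.13 CPM/kb over the 12752 genes of the table with a length. The stress-inducible HSP70 genes stood far below HSPA8. HSPA1B was at 17.0 ± 1.45 CPM/kb, above both medians, and HSPA1A at 6.35 ± 1.04 CPM/kb, below both. They are near-identical copies on chromosome 6 (hg19 chr6:31783291-31785723 and chr6:31795512-31798031). Set side by side without gaps at the best offset, their RefSeq promoter windows are 94.4% identical where they overlap. The sources used here do not say how reads shared between the copies were assigned, so both levels and their split are uncertain. HSPA1L, a testis HSP70 that overlaps HSPA1A by 147 bases on the other strand, was at 0.855 ± 0.154 CPM/kb, and HSPA2, known from testis, at 2.32 ± 0.371 CPM/kb. On the authors' FPKM scale HSPA5 came first and HSPA8 sixth. The width they divided by is 29185 bases for HSPA8, which spans 5742 bases in the genome and has 2699 bases of merged exons. Levels between the 60 genes are therefore not taken from FPKM here. The FPKM values given for markers and for genes outside the comparison table carry this limit.

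With dox, no gene of the 60 passed the test across all genes, and with the replicate number as a block 13 did. Without the block, limma called 0 of 60 genes at an adjusted p under 0.05, against 0.54% of the 13153 genes tested. At an unadjusted p under 0.05 there were 3 of 60 (5%), namely DNAJC9, DNAJA2 and HSPB11, against 13% of all genes. edgeR on the recovered reads called 0 of 60, against 0.515% of all genes, with 3 (5%) at an unadjusted p under 0.05, against 12.8%. DESeq2 called 0 of 60, against 3.99% of all genes, with 2 (3.33%) at an unadjusted p under 0.05, against 12.4%. The authors' deposited table also held 0 of 60 at an adjusted p under 0.05, against 2.78% of its rows, and its lowest adjusted p among them was 0.222.

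The replicate numbers marked a large part of the spread. Same-numbered dox and no dox libraries deviated together from their group means, and the range between the pairs' means exceeded the change with dox in 48 of 60 genes (80%), against 76.6% of all genes. HSPA5 illustrates this, with 26679.6, 17842 and 21116 normalised counts in dox cells, against 27814, 18762 and 21276 in no dox cells, each in the order of replicates 1, 2 and 3, as in all that follows. Replicate 1 was highest in both groups, replicate 2 lowest, and the change between groups was -0.05 on the log2 scale (SE 0.19, adjusted p 0.95 with limma). Fitting the replicate number lowered the median SE of the 60 genes to 0.054, against 0.107 without it.

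With the block, 13 of 60 genes (21.7%) were called by limma, against 22.5% of all genes. Of these, 7 rose (11.7%, against 10.2% of all genes) and 6 fell (10%, against 12.4%). The share called is thus near the background. At an unadjusted p under 0.05 there were 24 of 60 (40%) with the block, against 35.4% of all genes. DNAJB11, DNAJB4, HSPE1, HSPH1, DNAJB6, HSPA4 and DNAJA2 rose, and DNAJC9, HSPB7, DNAJC22, HSPA2, HSPB8 and HSP90AA1 fell. The called changes were small, between 0.16 and 0.35 on the log2 scale in size. edgeR with the block called 12 of 60 (20%), against 23.5% of all genes, and all 12 were among the 13; DNAJC22 was the exception, at an adjusted p of 0.0563. In limma fits with the block and 1 pair of libraries left out, 19 genes (31.7%, against 29.2% of all genes) were called without pair 1, 3 (5%, against 10.8%) without pair 2 and 5 (8.33%, against 13.5%) without pair 3. DNAJB4, DNAJB11 and DNAJC9 were called in each of these fits.

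**Figure D2:**
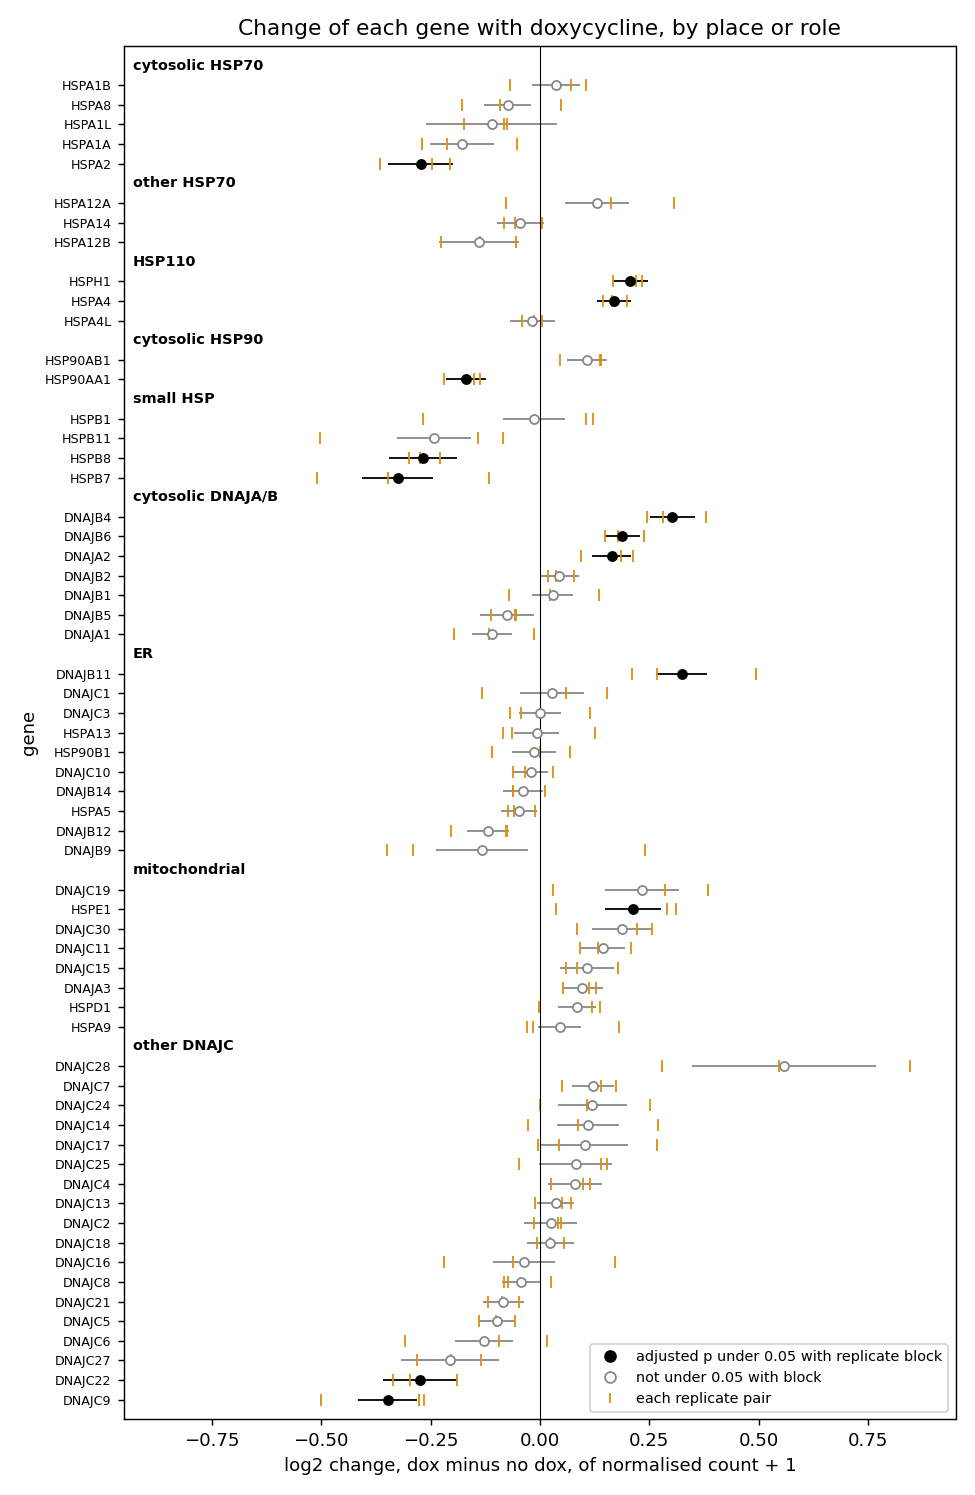
Change of each gene as log2(normalised count + 1), dox minus no dox, grouped by place or role. Circles with bars are the mean and its SE from limma with the replicate block, filled where the adjusted p was under 0.05, and orange ticks are the 3 replicate pairs. Most circles lie within 0.2 of 0, and the 8 mitochondrial genes lie right of it.

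Over all 60 genes the changes centred on 0. The median change was 0.012 on the log2 scale, against -0.0022 over all genes tested, and 31 genes were above 0 and 29 below. By pair, the median over the 60 was 0.021, -0.018 and 0.0016. Changes stayed under 0.2 in size in 47 of 60 genes (78.3%), against 70.3% of all genes. Only DNAJC28 had a log2 difference of 0.5 or more (1.67% of the 60, against 5.87% of all genes), and it had 24.5 to 46.3 normalised counts in any library and did not pass either test. In 34 of 60 genes (56.7%) all 3 pairs went the same way, against 55% of all genes. Dox was higher in every pair in 17 genes (28.3%, against 26.5% of all) and lower in every pair in 17 (28.3%, against 28.5%).

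The cytosolic HSP90 genes differed in sign. HSP90AA1, the stress-inducible form (hg19 chr14:102547075-102606036, minus strand), was at 46347, 37962 and 44818 normalised counts in dox cells, against 53963, 41726 and 49751 in no dox cells. It was lower with dox in all 3 pairs although the groups overlap, and it fell with the block (log2 change -0.17, SE 0.046, adjusted p 0.0273 with limma), while without pair 2 or pair 3 the adjusted p was 0.132 and 0.133. HSP90AB1, the constitutive form, was at 36714, 34683 and 41244 normalised counts in dox cells, against 33366, 33583 and 37418 in no dox cells. It was higher with dox in every pair, but its change of 0.11 on the log2 scale did not pass (SE 0.046, adjusted p 0.120 with limma and the block).

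The level of HSP90AA1 over that of HSP90AB1, in CPM/kb, was 0.934, 0.810 and 0.804 in dox cells, against 1.20, 0.919 and 0.984 in no dox cells. It was lower with dox in each pair, with log2 differences of -0.36, -0.18 and -0.29 (mean -0.28, SD 0.088), while dox replicate 1 lay above no dox replicate 2. This ratio was formed after the values were seen and is a description with no test. The ER form HSP90B1, also given by library after its values were seen, was at 36979.5, 35143 and 32138 normalised counts in dox cells, against 36999.7, 33482 and 34683 in no dox cells. Its groups overlap, and its change was -0.01 on the log2 scale (SE 0.049 with the block), but 0.042 without dox replicate 3.

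**Figure D3:**
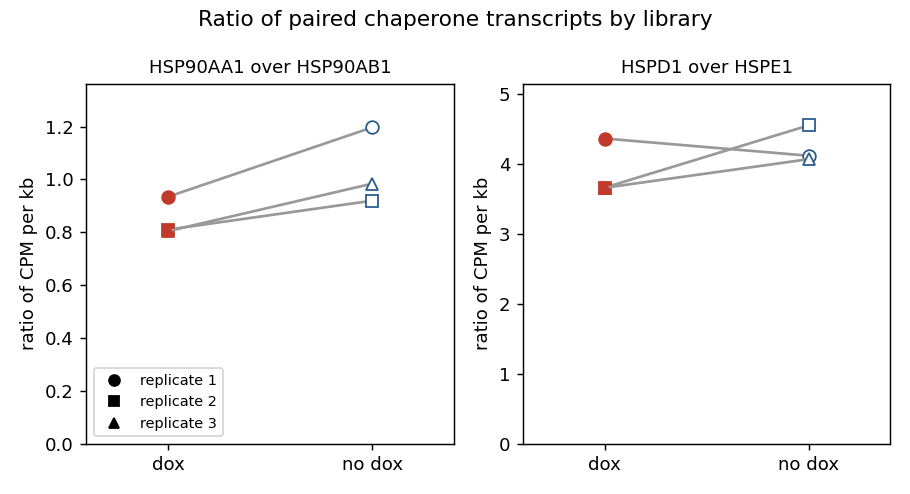
Ratio of HSP90AA1 to HSP90AB1 (left) and of HSPD1 to HSPE1 (right) in CPM per kb of merged exons, for dox and no dox libraries, with lines joining equal replicate numbers. The left ratio is lower with dox in each pair, and the right one is 4.36 in dox replicate 1, against 4.11 in no dox replicate 1, but lower with dox in the other pairs.

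Among HSP70 genes, 1 of 13 HSPA genes fell and 1 rose with the block, against 12.4% of all genes lower and 10.2% higher. HSPA8, given by library after its values were seen, was at 43190.4, 36767 and 49885 normalised counts in dox cells, against 46013, 41579 and 48266 in no dox cells. Its pairs differed in direction (-0.09, -0.18 and 0.05 on the log2 scale) and its change of -0.07, which was 0.038 without dox replicate 2, did not pass (SE 0.054 with the block). HSPA2 was at 390.6, 347.2 and 319.3 normalised counts in dox cells, against 503.4, 412.4 and 368.2 in no dox cells, lower with dox in all 3 pairs with groups that overlap. It fell with the block (log2 change -0.27, SE 0.074, limma adjusted p 0.0257), and was not called when any 1 pair was left out (adjusted p 0.0574 to 0.120). HSPA1A had log2 changes of -0.05, -0.27 and -0.21 in the 3 pairs and HSPA1B of 0.11, -0.07 and 0.07, and neither passed. The ER protein HSPA13 and the ribosome-associated HSPA14 had log2 differences of -0.01 and -0.04 and did not pass.

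The HSP110 genes HSPH1 and HSPA4, whose products release nucleotide from HSP70, rose with the block, as did 10.2% of all genes. HSPH1 was at 5737, 5620.4 and 4893 normalised counts in dox cells, against 5108, 4784 and 4200.4 in no dox cells. The dox library was higher in all 3 pairs, by 0.17, 0.23 and 0.22 on the log2 scale, and the groups overlap (log2 change 0.21, SE 0.040, limma adjusted p 0.00603 with the block). HSPA4 was at 9540.0, 8059 and 8832 normalised counts in dox cells, against 8508, 7296 and 7689.6 in no dox cells, again higher in each pair with overlapping groups (log2 change 0.17, limma adjusted p 0.0137 with the block). The third member, HSPA4L, had a log2 difference of -0.02 and did not pass. HSP110 genes made up 2.96%, 2.90% and 2.64% of the summed CPM/kb of the 60 genes in dox cells, against 2.59%, 2.57% and 2.34% in no dox cells. Each dox value was above each no dox value, as for the mitochondrial genes below. In every other group by place or role the shares of dox and no dox libraries overlapped. Of single genes, 9.03% of all tested had every dox library above every no dox library. Sums over other sets of genes were not formed, so no background is given for these shares. HSPA4 was the largest part of the HSP110 sum. Without pair 2 the adjusted p was 0.0758 for HSPH1 and 0.0903 for HSPA4, and without pair 3 it was 0.0497 for HSPH1 and 0.114 for HSPA4.

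**Figure D4:**
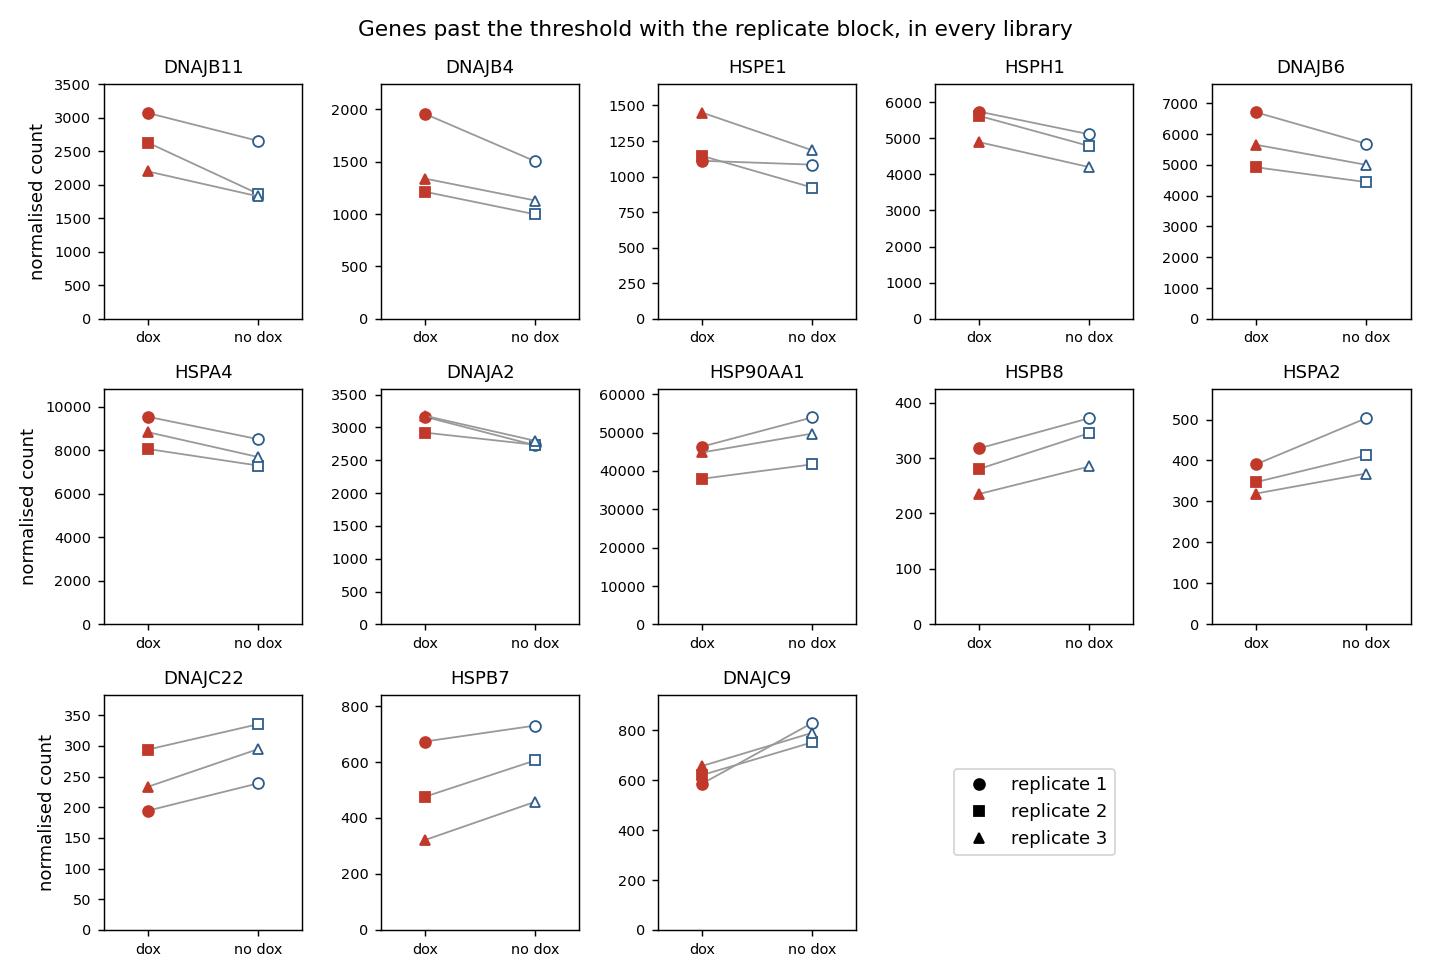
Normalised count of the 13 genes called with the replicate block in each library, filled symbols for dox and open symbols for no dox, with lines joining equal replicate numbers and axes starting at 0. Within each gene the 3 lines run the same way, and in 11 of the 13 genes the dox and no dox values overlap.

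Among cytosolic DNAJA and DNAJB genes, 3 of 7 rose with the block and none fell, against 10.2% of all genes higher and 12.4% lower. DNAJB4 (hg19 chr1:78444859-78483648), a class B partner of HSP70, was at 1956, 1213 and 1338 normalised counts in dox cells, against 1503, 997.3 and 1129 in no dox cells. Replicate 1 was highest in both groups, the groups overlap, and dox was higher in all 3 pairs (log2 change 0.30, SE 0.051 with the block, against 0.21 without it). Its adjusted p was 0.00296 with limma and the block. DNAJB6, a suppressor of polyglutamine aggregation whose promoter holds the heat shock element shown above, was at 6707, 4923 and 5655 normalised counts in dox cells, against 5683, 4441 and 5000.0 in no dox cells. It was higher with dox in each pair with overlapping groups (log2 change 0.19, limma adjusted p 0.00980 with the block), and its adjusted p was 0.0577 without pair 2 and 0.0579 without pair 3.

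DNAJA2, a class A partner of HSP70, was at 3162, 2920.3 and 3177 normalised counts in dox cells, against 2728, 2735 and 2795 in no dox cells. Its dox libraries were all above its no dox libraries (log2 change 0.16, SE 0.044, limma adjusted p 0.0255 with the block and 0.376 without it). Without pair 2 or pair 3 the adjusted p was 0.0780 and 0.140. The most abundant of these partners did not pass either test. DNAJA1 was at 6881, 5609 and 5524 normalised counts in dox cells, against 6947, 6085 and 6326 in no dox cells, lower with dox in all 3 pairs with overlapping groups (log2 change -0.11, limma adjusted p 0.119 with the block). DNAJB1, the main stress-inducible class B partner of HSP70, was at 4939, 4525 and 4827 normalised counts in dox cells, against 4860.5, 4755 and 4396 in no dox cells. Its pairs differed in direction (0.02, -0.07 and 0.14 on the log2 scale). The DNAJB1 gene lies to 84.6% within the span of TECR on the other strand, and the sources used here do not say whether reads were counted by strand.

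Of the 10 ER genes, DNAJB11 rose with the block and 9 did not pass, against 10.2% of all genes higher. DNAJB11 (ERdj3, chr3:186285192-186315061 in hg19), a soluble partner of BiP, was at 3069.5, 2627 and 2198 normalised counts in dox cells, against 2653, 1864 and 1826 in no dox cells. Dox was higher in all 3 pairs, by 0.21, 0.50 and 0.27 on the log2 scale, and no dox replicate 1 lay above dox replicate 3 and dox replicate 2 (mean 0.32, SE 0.058, limma adjusted p 0.00402 with the block). Without pair 1, 2 or 3 the adjusted p was 5.2e-07, 0.0435 and 0.0117. TBCCD1 on the other strand overlaps 10.5% of its span. The rest of the ER genes lay between -0.13 (DNAJB9) and 0.03 (DNAJC1). HSPA5 and HSP90B1, whose promoters hold the ER stress element shown above, were within 0.05 of 0, and both changed sign when single libraries were left out.

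All 8 mitochondrial genes had a change above 0, and 1 of them, HSPE1, passed with the block, against 10.2% of all genes higher. Their changes ran between 0.045 (HSPA9, mitochondrial HSP70) and 0.23 (DNAJC19, of the import motor) on the log2 scale with a median of 0.13, whereas 49.4% of all genes tested were above 0. The others were DNAJC30 at 0.19, DNAJC11 at 0.14, DNAJC15 at 0.11, DNAJA3 at 0.10 and HSPD1 at 0.09. All 8 were above 0 under each other scaling, filter and pseudocount. With dox replicate 1 left out 6 of 8 were above 0 (median 0.078), and with the block and without pair 1, 7 of 8 were. These genes were grouped after earlier results of these data were known. Together they made up 8.87%, 8.95% and 9.19% of the summed CPM/kb of the 60 genes in dox cells, against 7.94%, 8.59% and 8.53% in no dox cells. Each dox value was above each no dox value, and HSPD1, whose own groups overlap, was the largest part of the sum. Genes of the mitochondrial genome itself took 2.39%, 2.22% and 3.10% of the reads in dox libraries, against 2.42%, 2.63% and 3.33% in no dox libraries, lower with dox in each pair; their part in the result was not tested.

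The chaperonin HSPD1 (HSP60) and its lid HSPE1 (HSP10) share a bidirectional promoter region on chromosome 2. HSPE1 was at 1111, 1146 and 1449.8 normalised counts in dox cells, against 1084, 922.8 and 1184 in no dox cells. It was higher with dox in all 3 pairs with overlapping groups (log2 change 0.21, SE 0.064, limma adjusted p 0.0390 with the block), and pair 1 differed by 0.036 only. Without pair 2 or pair 3 its adjusted p was 0.258 and 0.199. HSPD1 was at 12081, 10451 and 13229 normalised counts in dox cells, against 11119.7, 10472 and 12018 in no dox cells, with pairs at 0.12, -0.0029 and 0.14 and no call (limma adjusted p 0.20 with the block). In the annotation of the deposited table the HSPE1 span (chr2:198364718-198368181 in hg19) lies 100% inside that of HSPD1 (chr2:198351305-198381461) on the other strand, so without strand their reads may not be told apart. The HSPD1 level over that of HSPE1 was 4.36, 3.66 and 3.65 in dox cells, against 4.11, 4.55 and 4.06 in no dox cells, with overlapping groups and no test.

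All 4 HSPB genes had a change below 0, as did 50.6% of all genes. HSPB7 and HSPB8 fell with the block, against 12.4% of all genes lower. On FPKM values and without dox or no dox replicate 1, 3 of 4 were below 0. The median of the 4 was -0.26, but -0.11 when dox replicate 3 was left out and -0.17 when no dox replicate 1 was. CRYAB, a small HSP gene that the symbol rule leaves out, went the other way and is named here after its values were seen. It averaged 109 ± 37.5 normalised counts in dox cells and 73.9 ± 52.7 in no dox cells (SD). Dox was higher in all 3 pairs (log2 change 0.71, limma adjusted p 0.0275 with the block and 0.606 without it). HSPB7, a small HSP known from heart and skeletal muscle, was at 673.4, 475.9 and 321.2 normalised counts in dox cells, against 730.4, 605.9 and 458.1 in no dox cells. The spread between replicate numbers was wide, dox was lower in all 3 pairs (-0.12, -0.35 and -0.51 on the log2 scale), and the limma adjusted p was 0.0187 with the block and 0.715 without it. HSPB8, which works with the HSP70 co-factor BAG3 in clearing misfolded proteins, was at 317.3, 280.2 and 235.1 normalised counts in dox cells, against 371.9, 344.9 and 284.7 in no dox cells, likewise lower in each pair with overlapping groups (log2 change -0.27, limma adjusted p 0.0349 with the block). Without pair 2 or pair 3 the adjusted p was 0.101 and 0.116 for HSPB7 and 0.198 and 0.115 for HSPB8.

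HSPB1, by far the most abundant small HSP, was at 11216, 12852 and 13169.6 normalised counts in dox cells, against 13509.8, 11812 and 12235 in no dox cells. Its pairs were at -0.27, 0.12 and 0.11 on the log2 scale, so pair 1 was opposite to the others. Over all pairs the change was -0.01 (SE 0.070 with the block), and without pair 1 it was 0.11 with an adjusted p of 0.0260 (limma with the block). HSPB11, which is also named IFT25 and belongs to the intraflagellar transport machinery, was lower in every dox library than in any no dox library (log2 change -0.24, SE 0.084), and its adjusted p of 0.0665 with limma and the block missed the threshold.

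Of the 25 DNAJC genes, DNAJC9 and DNAJC22 fell with the block and none rose, against 12.4% of all genes lower and 10.2% higher. DNAJC9 (hg19 chr10:74943120-75008620), a J domain protein that chaperones histones H3 and H4, was at 586.3, 621.1 and 657.5 normalised counts in dox cells, against 830.5, 752.7 and 790.8 in no dox cells. All dox libraries were below all no dox libraries (log2 change -0.35, SE 0.087 without and 0.067 with the block), and it had the lowest adjusted p of the 60 genes without the block, 0.130, against 0.00564 with it (limma). Its span is overlapped to 93.3% by FAM149B1 on the other strand, and reads of these genes may not be told apart. DNAJC22, a membrane protein whose Drosophila counterpart Wurst acts in endocytosis, was at 194.5, 294.2 and 233.5 normalised counts in dox cells, against 239.1, 335.6 and 295.0 in no dox cells. It was lower in each pair with overlapping groups (log2 change -0.27, limma adjusted p 0.0432 with the block), and it was not called when any 1 pair was left out (adjusted p at or above the threshold of 0.05 and up to 0.180).

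DNAJC8, a spliceosome-associated protein and the most abundant DNAJC transcript at 68.5 CPM/kb, was at 3303, 3570.1 and 3472 normalised counts in dox cells, against 3494, 3507 and 3652 in no dox cells. Its groups overlap and its pairs differed in direction, with a change of -0.04 on the log2 scale. The neuronal and vesicle proteins DNAJC5 (cysteine string protein) and DNAJC6 (auxilin) had log2 differences of -0.10 and -0.13, and the ribosome-associated DNAJC2 one of 0.02, none past the threshold. Dox and no dox libraries did not overlap in 10 of 60 genes (16.7%), against 19.1% of all genes. Dox was above in 4 (6.67%, against 9.03%), namely DNAJA2, DNAJC7, DNAJC28 and DNAJC30, and below in 6 (10%, as of all genes), namely DNAJC9, DNAJC27, DNAJB5, DNAJB12, HSPA12B and HSPB11. Only DNAJA2 and DNAJC9 were both free of overlap and called with the block.

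Genes that work with these chaperones were read from lists in the same fit. Without the block, limma and edgeR called 0 of 83 such genes, with 6 (7.23%, against 13% of all genes) at an unadjusted p under 0.05 by limma, and DESeq2 called 1, FKBP5. With the block limma called 24 of 83 (28.9%), against 22.5% of all genes, of which 10.2% were higher and 12.4% lower. Among 11 HSP70 nucleotide exchange factors 4 rose with the block and none fell. They included HYOU1 of the ER (log2 change 0.27, SE 0.044), GRPEL1 of mitochondria (0.37, SE 0.063) and BAG3 of the cytosol (0.20, SE 0.041), and the median of the list was 0.036, against -0.0022 over all genes. Of 20 HSP90 co-chaperones, 3 rose and 2 fell with the block. FKBP5, an immunophilin and glucocorticoid receptor target, averaged 1021 ± 169 normalised counts in dox cells and 1461 ± 159 in no dox cells (SD, n = 3 each; log2 change -0.53, SE 0.071, limma adjusted p 0.00092 with the block). PTGES3, the HSP90 co-chaperone p23, averaged 8342 ± 811 normalised counts in dox cells and 9856 ± 563 in no dox cells (log2 change -0.24, SE 0.043). PPID rose by 0.23 on the log2 scale with the block.

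Among 14 genes of the chaperonin TRiC and of prefoldin, which fold actin and tubulin, 4 rose with the block and none fell, against 10.2% of all genes higher and 12.4% lower, with a median of 0.094. PFDN4 rose by 0.31, PFDN5 by 0.18 and CCT7 by 0.16 on the log2 scale. Of 12 measured genes of mitochondrial quality control, 4 rose and none fell (median 0.096), including CLPB by 0.31 and CLPX by 0.18 beside GRPEL1. Of 15 ER folding partners, 2 rose (HYOU1 and SDF2L1) and 3 fell with the block, PDIA3 by 0.21 among them. Of the 14 listed HSF1 targets outside the 60 genes, 5 rose and 1 fell. BAG3 and IER5 rose by 0.20 and 0.22, and CACYBP fell by 0.27 on the log2 scale. None of the 5 listed genes of heat shock factors and their binding proteins (HSF1, HSF2, HSF4, HSBP1 and HSF2BP) passed with limma, with or without the block. HSF1, named here after its values were seen, averaged 2857 ± 148 normalised counts in dox cells and 2761 ± 235 in no dox cells (SD, n = 3 each). Of the called genes 4, HYOU1, GRPEL1 and BAG3 among them, stand in more than 1 list and were counted in each. The lists were drawn up after earlier results of these data were known.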

How the data were processed

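Polyadenylated RNA of 6 libraries was sequenced, and the titles of the samples gave their group and replicate number. TopHat, edgeR, Trimmomatic and bcl2fastq, with no versions, and the build hg19 are listed in the submitters' processing notes. The authors deposited a normalised count signal for 13161 genes, made in a way the sources used here do not give, FPKM for 57773 genes, and a comparison table of 13008 genes with CPM, log2 fold change, likelihood ratio score, p-value and its adjusted form, per the file headers. FPKM equalled CPM per kilobase of the deposited gene width (largest relative difference 1.5e-07). That width exceeds the genomic span in 13 of the 60 genes and in 16.4% of the table. Levels between genes were therefore recomputed as CPM per kilobase of merged exons (lengths from GENCODE 29 by gene ID). This choice was made after the data were seen. These lengths may differ from the annotation on which reads were counted, which limits the order by CPM/kb. For DNAJC15 the merged exons (7853 bases) exceed the deposited width (3462 bases), and it ranks 53, against 26 by FPKM. Dividing CPM by the worth of 1 read gave whole numbers for 100% of values (tolerance 0.01), hence whole reads and totals of 15094498 to 49882123. The 60 genes had 17 to 68267 reads in a library, and for the lowest of them this number limits the precision.

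The test was limma-trend, two-sided, on log2(normalised count + 1) over the 13153 genes that reached 10 normalised counts in 3 or more libraries (8 did not), with Benjamini-Hochberg adjustment over all of them and 4 residual degrees of freedom. Changes on this scale understate those of low genes. Same-numbered libraries deviated together from their group means (correlations 0.745, 0.726 and 0.768 across genes), so the numbers were taken to pair the libraries, although no label states what libraries of one number have in common, and a second fit with that number as a replicate block (2 residual degrees of freedom) is printed where its calls differ. The members, gene lists and groupings by role were chosen with earlier results of these data known. Values by library are given for genes called in either fit, the 3 with the highest mean FPKM, the highest of each family, and the largest rise and fall with a mean FPKM of at least 1; genes outside the families are the called ones of each list, up to 3 by adjusted p with the block. Alternatives were pseudocounts of 0.25 and 5, no filter or a minimum of 50, quantile, TMM and median-of-ratios scaling, log2(FPKM + 0.1) for genes with at least 0.3 FPKM, edgeR's quasi-likelihood test and DESeq2 on the recovered reads, leaving out each library, and, added after the data were seen, the block without each pair. Motifs were searched on both strands. Software was Python 3.11.15 with pandas 2.3.3, numpy 2.4.6 and matplotlib 3.10.9, and R 4.3.3 with DESeq2 1.42.0, edgeR 4.0.16 and limma 3.58.1.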

Additional observations from a re-analysis of the deposited data

How the results depend on the processing

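Of all genes, 2965 were called with the replicate block, 16 on FPKM values, 3058 by edgeR with the block, 519 by DESeq2 and 3 to 21 when 1 library was left out, against 71 in the reported fit without the block; the cause of these differences was not tested. The block without pair 1, 2 or 3, which leaves fewer libraries, called 3835, 1414 and 1779 genes. Of the 60 chaperone genes, 13 were called with the replicate block, 12 by edgeR with the block, and 19, 3 and 5 by limma with the block without pair 1, 2 or 3. Without a block the count was 0 under each alternative, those without 1 library included (0 to 0). The median change over the 60 lay between -0.017 and 0.038 when 1 library was left out and was -0.0092 with the block without pair 1. Of the genes given by library, 5 changed sign, and the cause was not tested. With 1 library left out, HSPA5 lay between -0.20 and 0.11 (0.089 with dox replicate 2 left out, 0.11 with no dox replicate 1 left out). HSPB1 lay between -0.058 and 0.058 (0.058 when dox replicate 1 was left out, 0.043 when no dox replicate 1 was), and was at 0.013 on FPKM values and 0.11 with the block without pair 1. HSPA8 lay between -0.18 and 0.038 (dox replicate 2 left out). HSP90B1 lay between -0.060 and 0.042 (0.026 when no dox replicate 1 was left out), and was at 0.013 on FPKM values, 0.019 with quantile scaling and 0.035 with the block without pair 3. DNAJB1 lay between -0.014 (no dox replicate 3 left out) and 0.065, and was at -0.024 with the block without pair 3. The other values of single genes kept their direction, 404 on the same side of the threshold and 44 past it, all of these with a block. Scaling moved the median change of all genes to between 0.0034 and 0.023 on the log2 scale. With 1 to 2 residual degrees of freedom, fits with the block rest on the variance shared across genes, and DNAJC28 and HSPA1L were limited by low counts.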

Other observations

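Several chaperone genes known for tissue-limited or strictly stress-induced transcription were outside the 13008 genes of the comparison table and were at or near 0 in the FPKM table, with symbols matched by gene ID to a reference name table. HSPA6, an HSP70 gene transcribed under severe stress, reached at most 0.0530 FPKM in any of the 6 libraries. The small HSP genes HSPB2, HSPB3 and HSPB6, known from muscle, reached at most 0.0360, 0.0314 and 0.0732 FPKM. The testis genes DNAJB7 and DNAJB13 reached at most 0.0601 and 0.00670 FPKM, and DNAJB8 was listed at 0 in every library. DNAJC12, a partner of aromatic amino acid hydroxylases, reached at most 0.0787 FPKM, and DNAJA4 at most 0.0122 FPKM. These genes were named after their values were seen.

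The level of HSPA1B over that of its near-identical copy HSPA1A was 3.06, 3.56 and 2.27 in dox cells, against 2.74, 3.11 and 1.85 in no dox cells, in CPM per kilobase of merged exons. It was higher with dox in each pair while the groups overlapped, and it was not tested. The level of HSPA8 over that of its exchange factor HSPH1 was 15.8, 13.8 and 21.4 in dox cells, against 18.9, 18.3 and 24.2 in no dox cells, lower with dox in each pair with overlapping groups and likewise not tested.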
